A study of Rattus norvegicus with 6 samples.

Results

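The 10 genes described here encode enzymes that break down the branched-chain amino acids leucine, isoleucine and valine. They were taken by name from the annotation of a 1-colour expression array, and all 10 were found among 26456 gene names, on 12 probes of 30367. The arrays hold RNA of left ventricle from 3 male OLETF rats aged 27, 28 and 27 weeks and from 3 male LETO rats aged 27, 28 and 28 weeks, with 1 array per sample. OLETF is a rat strain with obesity and type 2 diabetes that lacks a functional cholecystokinin receptor gene, Cckar, and LETO is the non-diabetic strain used as its control. No drug or diet is named in the labels. All OLETF samples are titled as diabetic (DM) and all LETO samples as non-diabetic (nonDM), so strain and diabetes cannot be told apart in this design. Per the series' design text the experiments were independent, 3 in each strain.

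Branched-chain amino acids are first transaminated, in muscle and heart mainly by the mitochondrial transaminase Bcat2. The resulting keto acids are then committed to oxidation by the branched-chain keto acid dehydrogenase complex, which a kinase, Bckdk, inactivates by phosphorylation and a phosphatase, Ppm1k, restores. After that step each amino acid has enzymes of its own, and the end products are acetyl-CoA, acetoacetate and succinyl-CoA. The route has been studied in the failing and in the insulin-resistant heart.

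One of the 10 genes was lower in OLETF and none was higher. Acadsb, the dehydrogenase of the isoleucine branch, fell to 49.3% of its LETO level (fold 95% interval 0.383 to 0.636, limma, adjusted p = 0.0188). Bckdhb, a catalytic subunit of the keto acid dehydrogenase complex, stood at 75.4% of its LETO level and missed the threshold of 0.05 (adjusted p = 0.0741). The other 8 genes differed by 0.22 or less on the log2 scale, in either direction, and none passed. Over all 18816 genes tested, 1.05% were called lower, 1.5% were called higher and 2.55% were called in either direction, and the 1 call among the 10 genes rests on a single gene. The median difference of the 10 genes was −0.011 on the log2 scale, against −0.0087 over all genes tested.

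The sequences of 3 probes are shown because their genes are the ones in which no OLETF array overlapped with a LETO array, and that of Ivd is shown because Ivd belongs to the same enzyme family as Acadsb and acts in the leucine branch. All are 60 bases long, are given 5′ to 3′ as in the array design, and carry no marked bases. On the rn4 build the probe of Acadsb lies at chr1:191026209-191026268, that of Bckdk at chr1:187193657-187193716 and that of Ivd at chr3:105391611-105391670, all on the plus strand. The ends of the Bckdhb probe lie 59406 bases apart, at chr8:89060810-89120215 on the plus strand, so its 60 bases are not contiguous in the genome.
Acadsb, probe A_43_P11702: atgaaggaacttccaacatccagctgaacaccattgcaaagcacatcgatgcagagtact
Bckdhb, probe A_44_P549610: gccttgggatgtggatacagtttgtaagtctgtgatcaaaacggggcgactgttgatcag
Bckdk, probe A_42_P834903: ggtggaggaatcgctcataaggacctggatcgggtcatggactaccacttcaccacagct
Ivd, probe A_44_P398176: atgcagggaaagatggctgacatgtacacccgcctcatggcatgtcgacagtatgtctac

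Signal below is log2 of the processed intensity minus the array's own 75th percentile over probes, so that 0 marks the 75th percentile and 1 unit is a doubling. Differences are OLETF minus LETO on that scale. All 12 probes were well above background on all 6 arrays, in 72 of 72 spots, with intensities between 656 and 36235 units and no saturated or outlying spot. The scanner's own error estimate was about 10% of the signal for these spots. The share of all spots well above background lay between 75.7% and 79.8% in OLETF and between 75.5% and 79.4% in LETO, and the number of arrays limits the precision. OLETF 1 and the 3 LETO arrays lay on 1 slide, and OLETF 2 and OLETF 3 on another, so the value within the first slide compares 1 OLETF array with 3 LETO arrays. LETO 1 stood apart from the rest, with an array weight of 0.206 against 0.736 to 2.94 for the other arrays. Cardiomyocyte markers were well above background on all 6 arrays for 8 of 8 genes. In whole tissue, fewer cells of a type and less RNA per cell cannot be told apart.

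**Figure D1:**
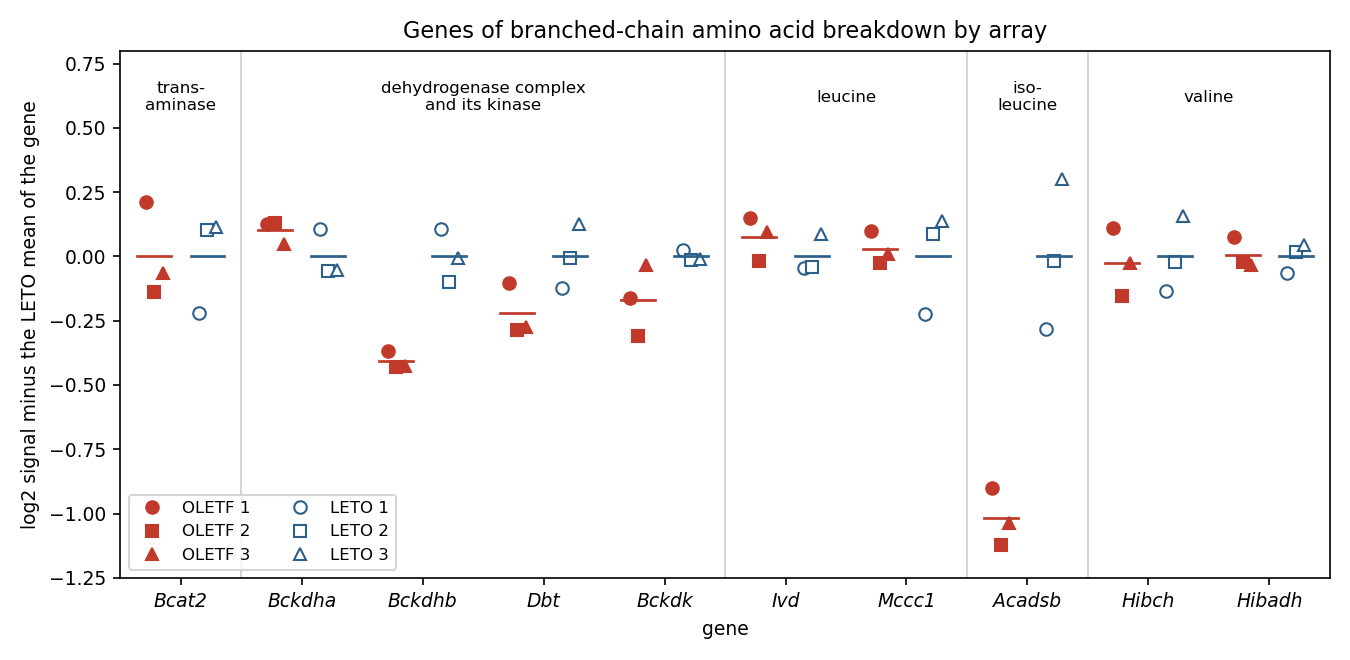
Signal of each of the 10 genes in each array, as log2 signal minus the mean of the 3 LETO arrays for that gene, with OLETF filled and LETO open, symbols for the replicate numbers and horizontal bars for strain means. Acadsb is the only gene of the 10 with all OLETF arrays more than 0.5 below the lowest LETO array, and Bckdhb has the next widest gap.

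Bcat2 performs the first and reversible step, the transfer of the amino group to oxoglutarate. Its signal was 2.95, 2.59 and 2.67 in OLETF 1 to 3, against 2.51, 2.83 and 2.85 in LETO 1 to 3. The strains overlapped, with the lowest value in LETO 1 and the highest in OLETF 1. The difference was 0.0025 ± 0.14 (SE, adjusted p = 0.999), with a 95% interval from −0.32 to 0.33. A second probe, which shares 50 of its 60 bases with the first, gave 0.0099. The cytosolic transaminase Bcat1, which is low in adult heart and high in brain, had −2.56, −2.58 and −2.31 in OLETF and −1.78, −2.42 and −2.29 in LETO. Its difference was −0.32 ± 0.18 (SE, adjusted p = 0.584). The highest value came from LETO 1, and without that array the difference was −0.13.

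The keto acid dehydrogenase complex has a decarboxylase (E1) built from the alpha subunit Bckdha and the beta subunit Bckdhb, a transacylase core (E2) encoded by Dbt, and a dihydrolipoyl dehydrogenase (E3) encoded by Dld that other complexes share. Bckdhb had 2.81, 2.75 and 2.76 in OLETF, against 3.29, 3.08 and 3.18 in LETO. No OLETF array reached the lowest LETO array, and the gap between the strains was 0.27. The mean was 2.77 ± 0.034 in OLETF and 3.18 ± 0.10 in LETO (SD, n = 3 each), a difference of −0.41 ± 0.089 (SE) with a 95% interval from −0.62 to −0.20 (limma, adjusted p = 0.0741). Within the first slide the difference was −0.37 (adjusted p = 0.591). Without the filter on dim probes the adjusted p was 0.199, and with 1 array left out it lay between 0.0762 and 0.290. With array weights, which give LETO 1 little weight, or with a variance trend and robust estimation the gene was called, at adjusted p = 0.0123 and 0.0347. These settings called 801 and 263 of all genes lower, against 197 in the main fit. With LETO 1 left out, the difference was −0.35 and the gene was not called (adjusted p = 0.0762).

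Bckdha, the subunit that carries the phosphorylation sites used by Bckdk, was not called. Its signal was 3.105, 3.11 and 3.03 in OLETF, against 3.09, 2.92 and 2.93 in LETO, and the strains overlapped. The difference was 0.10 ± 0.088 (SE, adjusted p = 0.802). Its 95% interval ran from −0.11 to 0.31. The file's rn4 position of the Bckdha probe, chr1:80837874-80837892 on the minus strand, covers 19 of its 60 bases.

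Dbt had 2.10, 1.92 and 1.93 in OLETF, against 2.08, 2.20 and 2.33 in LETO. OLETF 2 and OLETF 3 were below all LETO arrays, while OLETF 1 was slightly above LETO 1. The difference was −0.22 ± 0.10 (SE, adjusted p = 0.461), and within the first slide it was −0.11. Dld, the shared E3 component, had a value of 0.087 (adjusted p = 0.876).

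The ratio of the subunits within each array does not depend on the scaling of the arrays to a common percentile. The log2 signal of Bckdhb minus that of Bckdha was −0.29, −0.36 and −0.27 in OLETF, against 0.20, 0.16 and 0.25 in LETO. Every OLETF array was thus below every LETO array, with an SD of 0.046 in OLETF and 0.045 in LETO, and the strains differed by −0.51. That corresponds to a Bckdhb to Bckdha ratio in OLETF at 70.2% of that in LETO. Within the first slide the shift was −0.49, and over all alternatives of processing, arrays left out included, it lay between −0.53 and −0.48. Many of these alternatives cannot move it. Scaling by a constant per array, the filters, the choice of probe, the variance model and the replicate block leave it unchanged. Only the shift between strains can be read from this ratio, since the signals of different probes are not on a common scale, and unequal change of the pair does not show which of them changed. For Dbt minus Bckdha the values were −1.01, −1.19 and −1.10 in OLETF and −1.005, −0.73 and −0.60 in LETO, and the shift was −0.32. The strains did not overlap by this measure, but OLETF 1 and LETO 1 were nearly equal. The 5 pairs drawn in the plot of within-array differences were chosen as partners in an enzyme or a step after the values of the single genes had been seen, and no test was made of them.

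**Figure D2:**
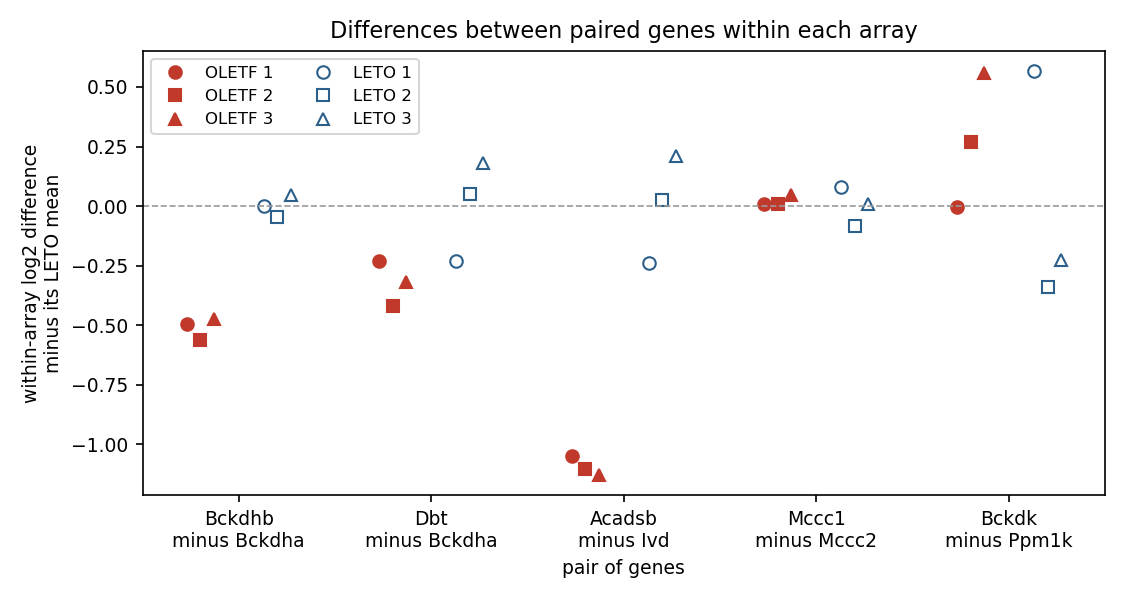
Log2 signal of the first gene minus that of the second within each array, shown relative to the LETO mean of the pair, with OLETF filled and LETO open. The OLETF arrays lie below all LETO arrays for Bckdhb minus Bckdha and for Acadsb minus Ivd, and they overlap with LETO for Mccc1 minus Mccc2 and for Bckdk minus Ppm1k.

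Bckdk, the inhibitory kinase of the complex, had 2.00, 1.86 and 2.13 in OLETF, against 2.19, 2.15 and 2.16 in LETO. The OLETF arrays all lay below the LETO arrays, but OLETF 3 missed the lowest LETO array by 0.020, and the LETO arrays were close together with an SD of 0.020 against 0.14 in OLETF. The difference was −0.17 ± 0.10 (SE, adjusted p = 0.595). Together with Acadsb and Bckdhb this makes 3 of 10 genes with no overlap, all lower in OLETF. Of all genes tested, 8.45% were lower and 8.89% were higher without overlap, and 17.3% did so in either direction. The opposing phosphatase Ppm1k had 0.25, −0.17 and −0.19 in OLETF, against −0.14, 0.73 and 0.62 in LETO. LETO 1 lay among the OLETF arrays for this gene, and the difference was −0.44 ± 0.24 (SE, adjusted p = 0.572). It was −0.72 without LETO 1 (adjusted p = 0.0902), −0.28 without LETO 2 (adjusted p = 0.804) and −0.16 within the first slide. Bckdk minus Ppm1k overlapped between the strains, with 1.76, 2.03 and 2.32 in OLETF and 2.33, 1.42 and 1.53 in LETO.

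In the leucine branch, Ivd oxidizes isovaleryl-CoA and Mccc1 is the biotin-carrying subunit of the carboxylase that acts next. Ivd had 4.26, 4.09 and 4.21 in OLETF, against 4.07, 4.07 and 4.20 in LETO, with a difference of 0.076 ± 0.091 (SE, adjusted p = 0.891). Mccc1 had 3.91, 3.79 and 3.82 in OLETF, against 3.59, 3.90 and 3.95 in LETO. Both genes overlapped between the strains, and LETO 1 gave the lowest Mccc1 value. The difference of Mccc1 was 0.028 ± 0.12 (SE, adjusted p = 0.975), and its partner subunit Mccc2 had a difference of 0.0072 (adjusted p = 0.995). Within each array Mccc1 minus Mccc2 was 0.32, 0.32 and 0.36 in OLETF and 0.39, 0.23 and 0.32 in LETO. The ratio of this subunit pair differed between the strains by 0.021, which is less than its SD of 0.082 in LETO.

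In the isoleucine branch, Acadsb (short/branched chain acyl-CoA dehydrogenase) oxidizes 2-methylbutyryl-CoA. Its signal was −0.21, −0.43 and −0.35 in OLETF, against 0.40, 0.67 and 0.99 in LETO. In intensity units this was 1060, 656 and 964 in OLETF, against 1396, 1516 and 2093 in LETO. All OLETF arrays were below all LETO arrays by at least 0.62, and the LETO arrays were the more scattered ones. The mean was −0.33 ± 0.11 in OLETF and 0.69 ± 0.29 in LETO (SD, n = 3 each). The difference was −1.02 ± 0.16 (SE) with a 95% interval from −1.39 to −0.65 (limma, adjusted p = 0.0188). By size it ranked 324 among the 18816 genes tested.

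The Acadsb difference was negative under all 18 alternatives, between −1.21 and −0.87. Filters, choice of probe, variance model and replicate block cannot move the difference of a gene with 1 probe. The call was lost without OLETF 1, OLETF 2, OLETF 3 or LETO 2, at adjusted p = 0.0549, 0.108, 0.0935 and 0.0675, and was kept without LETO 1 or LETO 3. With slide as a block the value was −0.90 with a 95% interval from −1.46 to −0.34 (adjusted p = 0.286), and the call was also lost with age as a covariate (adjusted p = 0.0508) or without a filter on dim probes (adjusted p = 0.0771). Acadsb has 1 probe on the array, so a second reading of the transcript was not available from these files.

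Acadsb belongs to the family of acyl-CoA dehydrogenases, which also serve fatty acid oxidation. Of 11 family members listed 10 were tested, and Acad8 was not analysed here. Acadsb, described above, was the 1 called of the 10, where 2.55% of all genes tested were called. The others had differences between −0.090 for Acad9 and 0.18 for Acadm. Acadm, the medium-chain enzyme of fatty acid oxidation, had an adjusted p of 0.683, and Acads, the short-chain enzyme, had a difference of 0.021 (adjusted p = 0.976). Against Ivd, the family member of the leucine branch, Acadsb minus Ivd within each array was −4.47, −4.53 and −4.55 in OLETF and −3.66, −3.40 and −3.21 in LETO. The strains did not overlap, the shift was −1.09, and within the first slide it was −1.05.

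In the valine branch, Hibch releases 3-hydroxyisobutyrate from its CoA ester and Hibadh oxidizes it. Hibch had 0.34, 0.081 and 0.21 in OLETF, against 0.10, 0.21 and 0.39 in LETO, with a difference of −0.024 ± 0.11 (SE, adjusted p = 0.978). A second Hibch probe, 12892 bases away on rn4 and with no base in common, gave −0.081 (adjusted p = 0.908 with every probe tested on its own). Both probes thus overlapped between the strains. Hibadh had 4.88, 4.79 and 4.77 in OLETF, against 4.74, 4.83 and 4.85 in LETO, and its difference was 0.0065 ± 0.083 (SE, adjusted p = 0.994). It was the least scattered of the 10 genes, with a pooled SD of 0.058 where the median over all genes tested was 0.146. Its interval from −0.19 to 0.20 was the narrowest of the 10.

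**Figure D3:**
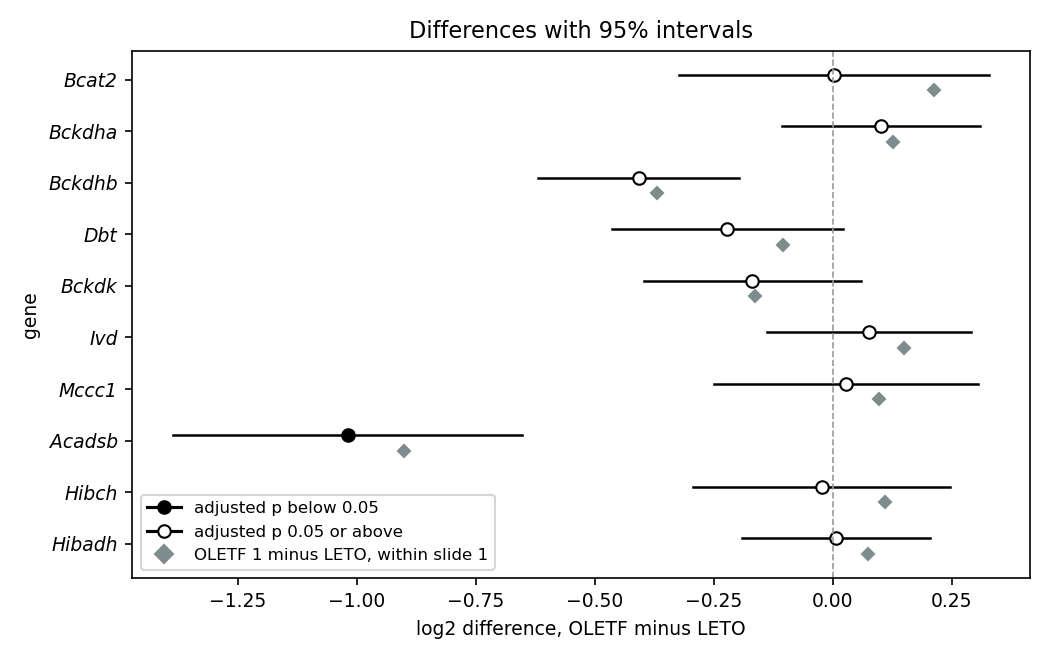
Difference between OLETF and LETO for each of the 10 genes on the log2 scale, with circles for the estimate, lines for its 95% interval and diamonds for the value within the first slide (OLETF 1 minus the mean of the LETO arrays). Only Acadsb has a filled circle, for an adjusted p below 0.05, and the intervals of Acadsb and Bckdhb are the 2 that do not reach 0.

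Across the 10 genes, the OLETF arrays were not shifted together. The median deviation from the LETO mean was 0.086 in OLETF 1, −0.15 in OLETF 2 and −0.034 in OLETF 3, against −0.092, −0.016 and 0.10 in LETO 1 to 3. Of the 10 genes, 4 lay below the LETO mean in OLETF 1, 9 in OLETF 2 and 7 in OLETF 3. Acadsb was the lowest of the 10 by this measure in each of the 3 OLETF arrays, and also in LETO 1.

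The rest of the route gave no call. Of 17 further enzymes listed, 15 were tested, and Acad8 and Mmab were not analysed here. Of these 15 genes, 9 had positive and 6 had negative values, and the median was 0.014. Echs1, a hydratase shared with fatty acid oxidation, had 6.17, 6.23 and 6.07 in OLETF, against 6.39, 6.33 and 6.37 in LETO, and did not overlap (difference −0.21 ± 0.084, SE, adjusted p = 0.378). An unadjusted p under 0.05 was found for 2 of the 15 genes, Echs1 included, where 12.4% of all genes tested had one. The propionate enzymes Pcca, Pccb and Mut, through which the carbons of valine and isoleucine reach succinyl-CoA, had differences of 0.087, −0.054 and 0.017.

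Carriers and regulators of the route gave no call either. Of 7 amino acid transporters 5 were tested, with a median of −0.0048. At an unadjusted p under 0.05 there were 0 transporters of 5 and 1 regulator of 4, Ppara, against 12.4% of all genes tested. Slc25a44, the carrier that brings branched-chain amino acids into mitochondria, had 1.29, 1.11 and 1.08 in OLETF, against 1.01, 1.29 and 1.19 in LETO (difference −0.0048, adjusted p = 0.995). The plasma membrane carriers Slc43a2 and Slc43a1 had values of 0.23 (adjusted p = 0.546) and −0.24 (adjusted p = 0.616), and both overlapped. A second Slc43a2 probe gave −0.025, also with overlap. Within the first slide Slc43a2 had 0.0051 and Slc43a1 had −0.12, and without LETO 1 Slc43a1 had −0.097. Klf15, a transcription factor that drives several enzymes of the route in heart and muscle, had 2.78, 2.53 and 2.34 in OLETF, against 2.13, 2.62 and 2.67 in LETO (difference 0.076 ± 0.18, SE, adjusted p = 0.953). Of all genes tested, 17.3% did not overlap between the strains. Ppara, a nuclear receptor of fatty acid oxidation, was the 1 regulator of 4 without overlap, at 0.067, −0.16 and −0.035 in OLETF and −0.60, −0.72 and −0.38 in LETO (adjusted p = 0.0805). Its coactivator Ppargc1a overlapped, with a value of −0.19 (adjusted p = 0.711).

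**Figure D4:**
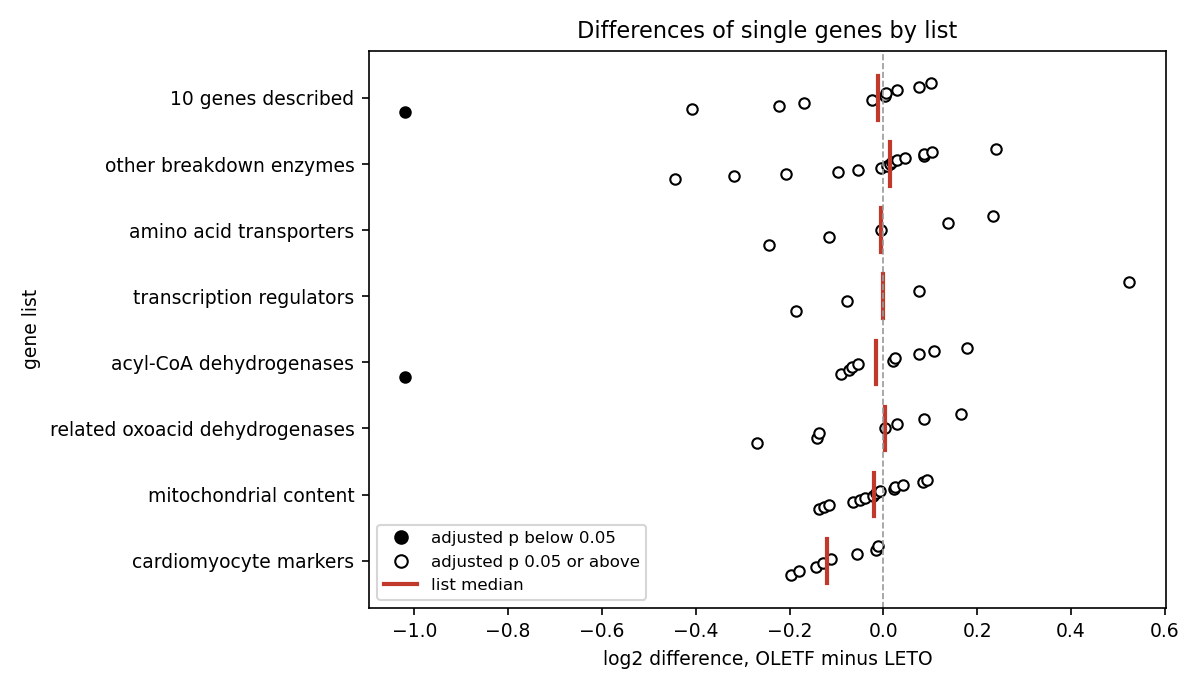
Difference between OLETF and LETO on the log2 scale for single genes, in the 10 genes, 5 lists of related genes, mitochondrial content and cardiomyocyte markers, with 1 circle per gene tested, filled where the adjusted p is below 0.05, and red bars for the list medians. Acadsb, which stands in 2 lists, is the 1 gene called among those drawn, and the medians drawn lie between −0.12 for cardiomyocyte markers and 0.014 for the other breakdown enzymes.

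Markers of mitochondria and of cell types were set beside these values. Over all genes tested, 2.55% were called and 12.4% had an unadjusted p under 0.05. Of 14 genes of mitochondrial content 0 were called by limma and 0 had an unadjusted p under 0.05, with a median of −0.019 and values between −0.14 and 0.092. Of 8 cardiomyocyte markers 0 were called and 1 had an unadjusted p under 0.05, with 8 negative values and a median of −0.12. The strains did not overlap for 3 of the 8, all lower in OLETF, against 8.45% of all genes tested. The summed signal of the 8 markers, in multiples of the 75th percentile, was 2013 to 2446 in OLETF and 2175 to 2439 in LETO. Fibroblast markers had a median of 0.18 over 6 genes and a summed signal of 79.4 to 91.6 in OLETF and 63.0 to 82.9 in LETO, with 0 called and 2 at an unadjusted p under 0.05. For 2 of the 6 the strains did not overlap, both higher in OLETF, against 8.89% of all genes tested. Among adipocyte markers, listed because fat also breaks down branched-chain amino acids, Adipoq was well above background on 0 OLETF arrays and 1 LETO array, Lep on 1 OLETF array and 0 LETO arrays, and Cidec on none of the 6. The 2 adipocyte markers tested were well above background on all 6 arrays. Fabp4, which endothelial cells also express, averaged 3.32 in OLETF and 3.12 in LETO (difference 0.20, adjusted p = 0.512). Its strains did not overlap, but the gap was only 0.0008. Cfd averaged 1.08 in OLETF and 1.09 in LETO with overlap (adjusted p = 0.999). Endothelial markers had a median of −0.017 over 6 genes (−0.33 to 0.25), with 0 called and 1 at an unadjusted p under 0.05. Overlap was absent for 2 of the 6, 1 lower and 1 higher, against 17.3% of all genes tested. Macrophage markers had a median of 0.073 over 4 genes (−0.38 to 0.20), with 0 called. Red cell markers had a summed signal of 6.64 to 7.71 in OLETF and 6.26 to 22.4 in LETO, with LETO 1 and LETO 2 high in Hbb. Of the 3 red cell genes tested, Slc4a1 was called higher in OLETF (difference 3.19, adjusted p = 0.0059). The other 2 had negative values and were not called, and the list median was −0.94. The part of cell makeup in the Acadsb and Bckdhb values was not tested.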

How the data were processed

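RNA of rat left ventricle was hybridised to 6 arrays of 1 colour, 3 per strain. The scanner files hold linear intensity, background-subtracted and detrended within the array, made with Agilent Feature Extraction 10.7.3.1 per the file headers, while version 9.1 is given in the submitters' processing notes. The deposited value table holds the same intensity divided by a constant for each array, and its column medians were 0.154 to 0.159 in OLETF and 0.154 to 0.163 in LETO. Groups came from the strain label and replicate numbers from the titles.

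Control spots and spots with an outlier flag were left out, spots of a probe were averaged as log2, and the 75th percentile over probes was subtracted. Testing required detection well above background in all 3 samples of at least 1 strain, which kept 21484 of 30367 probes. Each gene was read from its brightest tested probe, giving 18816 genes. The strains were compared in R 4.3.3 with limma 3.58.1 (lmFit, eBayes, Benjamini-Hochberg over all genes, threshold 0.05), with 95% intervals from the same fit. No pairing of the rats is stated in the labels, so no block was used. The deviations of same-numbered samples correlated at −0.088, −0.14 and −0.0080, but with 3 arrays per strain this cannot exclude a pairing. The fit was tested on simulated data. Figures were drawn with matplotlib 3.10.9. The alternatives covered scaling, background correction, filter, choice of probe, variance model, array weights, replicate block, age, slide and arrays left out. Named genes were all 10 members, called genes of the pathway lists, or the 2 with the lowest p of a list without a call, and Bcat1, Ppm1k, Klf15 and Slc25a44. One gene that this rule names is not reported here. Dld, Mccc2, Pcca, Pccb, Mut, Acadm, Acads, Acad9, Pdhb, Adipoq, Lep, Cidec, Fabp4, Cfd and Hbb were added after their values were seen. The 10 genes and the lists were chosen with earlier results of these data known. Probe sequences and rn4 positions are those of the files.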

Additional observations from a re-analysis of the deposited data

How the results depend on the processing

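Of the 10 genes, Bckdha, Bckdhb, Dbt, Bckdk, Ivd and Acadsb kept their direction under all 18 alternatives run for single genes. These genes have 1 probe each. Their differences cannot move with the filters, the choice of probe, the variance model or the replicate block, which change only the p-values. The decrease of Acadsb was no longer called without a filter on dim probes and with the replicate block (−1.02 each, with adjusted p = 0.0551 under the block), with age (−0.97) or with slide as a block (−0.90), and ranged from −1.16 to −0.87 with 1 array left out. Bckdhb was called with trend and robust estimation (−0.41) and with array weights (−0.39). The members called lower numbered 0 without the filter and with the replicate, age and slide terms, 2 with trend and robust estimation or array weights, and 0 to 1 with 1 array left out. Over all genes, those called lower were 91 without the filter, 801 with array weights, 51 with slide and 87 to 242 with 1 array left out, and those called higher were 149, 857, 52 and 110 to 374, and 166 with the replicate block. Signs turned for genes near 0. Bcat2 had −0.011 with normexp and −0.11 with array weights, Mccc1 −0.083 and Hibadh −0.040 with array weights, and Hibch 0.11 with slide. With 1 array left out they ranged from −0.11 to 0.074 for Bcat2, −0.084 to 0.097 for Mccc1, −0.090 to 0.055 for Hibch and −0.027 to 0.029 for Hibadh.

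The same alternatives were applied to the other named genes and to the pairs after the data had been seen. Klf15 had −0.16 with array weights and −0.098 to 0.18 with 1 array left out. Slc25a44 had 0.014 with median scaling, 0.0054 with the value table, 0.020 with age, 0.13 with slide and −0.081 to 0.059 with 1 array left out. Ppargc1a had 0.035 and Bckdk minus Ppm1k −0.0046 with slide, and Mccc1 minus Mccc2 had −0.0018 with age and −0.022 to 0.060 with 1 array left out. With array weights Ppm1k (−0.70), Pdha1 (−0.34) and Ppara (0.44) were called, and Ppara also with trend and robust estimation. The cause of these changes was not tested. With 1 array left out a strain has as few as 2 arrays, and with slide as a block OLETF is represented by 1 array within the first slide. All member probes were well above background on all 6 arrays.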

Other observations

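The pyruvate and oxoglutarate dehydrogenase complexes are built on the same plan as the branched-chain complex and share its Dld subunit. Of 7 subunit genes tested 0 were called by limma, and the median difference was 0.0044. An unadjusted p under 0.05 was found for 1 of the 7, against 12.4% of all genes tested. Pdha1, the alpha subunit of pyruvate dehydrogenase, had 5.46, 5.42 and 5.37 in OLETF, against 5.51, 5.81 and 5.74 in LETO. Its difference was −0.27 ± 0.10 (SE, adjusted p = 0.338) without overlap, and a second probe gave −0.22 with overlap. Dlat, its transacylase core, had −0.14 (adjusted p = 0.717). The difference between strains was the more negative one for the beta subunit in the branched-chain complex and for the alpha subunit in pyruvate dehydrogenase. Pdhb, the beta subunit of pyruvate dehydrogenase, had a difference of 0.030 (adjusted p = 0.974). None of these differences passed the test, and the contrast between the complexes was not tested.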
